A study of Mus musculus with 6 samples.

Results

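Wnt ligands, their Frizzled receptors and the other cell surface receptors of Wnt signalling were examined in the mucosa of the mouse small intestine. Members were taken by gene symbol: every gene named Wnt or Fzd followed by a number, with Lrp5, Lrp6, Ror1, Ror2 and Ryk. This gave 34 of the 38561 genes in the count tables, made up of 19 ligands, 10 Frizzled receptors and 5 others. RNA had been sequenced after oligo(dT) selection from 6 pools, 3 labelled Rbm47_IKO, for an intestine-specific knockout of the RNA-binding protein gene Rbm47, and 3 labelled wt. Per the labels each pool held RNA of 3 C57BL/6J mice of both sexes, aged 8 to 12 weeks, and no pool carried another treatment or allele. The study's own text allows for slightly larger pools and a wider range of ages than the labels do. The study's methods describe the knockout as a Cre transgene under the Villin promoter on a floxed Rbm47 gene. That promoter is active in intestinal epithelium and not in the stroma. The same methods describe the controls as mice with the floxed Rbm47 gene, whereas the labels call them wild type. A pool mixes mice, so that the spread between single mice is not seen. The p-values below weigh the difference between labels against the spread between pools, not between mice, estimated with information shared across genes.

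Wnt proteins are secreted, lipid-bearing signals that act over short distances. In the canonical branch a Wnt binds a Frizzled receptor together with LRP5 or LRP6, which protects β-catenin from degradation and lets it switch on target genes with TCF factors, and this signal maintains the stem cells at the base of intestinal crypts. ROR1, ROR2 and RYK are alternative receptors that mostly serve the branches without β-catenin, such as the one for planar cell polarity. In the crypt, Paneth cells of the epithelium secrete WNT3, while mesenchymal cells under the epithelium supply others such as WNT2B and WNT5A. Ligands were therefore kept apart as epithelial (Wnt3, Wnt6, Wnt9b), stromal (Wnt2, Wnt2b, Wnt4, Wnt5a, Wnt5b, Wnt9a) and unassigned (the remaining 10), a split made from general knowledge of the tissue and not from these pools.

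The study designed quantitative PCR primers for several members, and the pairs of 5 of them are shown because they fix which exons of each transcript were read by PCR, whereas the sequencing counts below sum all exons. Each pair matched the transcripts of 1 gene in GENCODE M21 (GRCm38), and each product lay wholly in coding sequence. All primers are written 5′ to 3′, and the capitals in the Fzd3 reverse primer mark the bases that lie past an exon junction.
Fzd2 forward: ggcccgacggctctatgt
Fzd2 reverse: ccagagacgggcaaaacg
Fzd3 forward: tgctttgaatgggccagttt
Fzd3 reverse: ccggctctcattcactatcTCTTT
Wnt6 forward: agccacgcggtcactca
Wnt6 reverse: gggtgcctgacaaccacact
Wnt7b forward: tctctgctttggcgtcctcta
Wnt7b reverse: gggccaccacggatga
Wnt11 forward: gggcacccgcaaacact
Wnt11 reverse: agtccttcacaggccggata
The Fzd2 product of 56 bases lay in the single exon of that gene (chr11:102605432-102605487, plus strand). The Fzd3 product of 63 bases joined exons 5 and 6 of 7 (chr14:65209907-65212118, minus strand). The Wnt6 product of 63 bases lay in exon 3 of 4 (chr1:74782607-74782669, plus strand), the Wnt11 product of 56 bases in exon 6 of 7 (chr7:98850385-98850440, plus strand), and the Wnt7b product of 56 bases joined exons 1 and 2 of 4 (chr15:85559107-85581412, minus strand).

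Depth was similar in all pools, from 31560320 to 38951830 counted reads. The label was checked with Rbm47 itself (chr5:66016549-66173117). Its level was 87.9, 91.1 and 90.4 RPKM in pools 1 to 3 of that label and 67.0, 65.6 and 68.8 RPKM in wt (log2 fold change 0.42 with a standard error, SE, of 0.10, adjusted p = 0.0751 by edgeR), where RPKM is the count per kilobase of gene, scaled to library size by the TMM method. The targeted gene was thus higher, not lower, in every pool under the knockout label. The difference passed with DESeq2 (adjusted p = 0.00942) but not with edgeR. The count covers the whole gene, which includes reads outside any deleted part, and it does not match the label. Why it was higher was not tested. The study itself reports negligible Rbm47 mRNA and protein after the deletion. By PCR it reports Wnt11, Wnt7b, Fzd8, Fzd3 and Ccnd1, among others, as higher in knockout mice. Their values under the labels here are given below, with log2 fold changes from 0.50 to 1.72 and adjusted p from 0.117 to 0.693 by edgeR. The study ran that PCR on genes of interest from its RNA sequencing, so their direction here is no separate check of the labels. Because the Rbm47 count does not match the label, the groups are called by their labels, and every direction below is between labelled groups. Xist, which is transcribed from the inactive X chromosome of female cells, was at 75.6, 258.1 and 40.3 CPM (the same without gene length) in the pools labelled Rbm47-IKO but at 1.09, 150.0 and 0.686 CPM in wt pools 1, 2 and 3. The 4 Y-linked genes Ddx3y, Eif2s3y, Kdm5d and Uty summed to 138.6, 53.0 and 143.7 CPM against 215.4, 87.9 and 220.3 CPM. Xist was thus near 0 in wt pools 1 and 3, although their label gives both sexes, and the Y-linked sum was highest in the same pools. All 6 enterocyte markers were detected in every pool, at a summed 28077 to 29377 CPM in the pools labelled Rbm47-IKO and 30211 to 33887 CPM in wt. Of these markers 3 were above 0 in log2 fold change and 3 below. Apoa4, an apolipoprotein, was lower in every pool labelled Rbm47-IKO, at 3198 to 3548 CPM against 4295 to 8088 CPM. So was Sis, at 7160.5 to 7727.3 CPM against 8214.2 to 10948 CPM. Fabp2, a fatty acid binding protein, was higher in every pool labelled Rbm47-IKO, at 7693 to 8531 CPM against 4718 to 6716 CPM. All 6 smooth muscle markers were detected as well, and their sum ran from 361 to 3302 CPM against 90.7 to 2803 CPM, with the highest values in Rbm47-IKO pool 3 and wt pool 2.

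Of the 34 members, 25 had enough counts to be tested and 9 did not. One of the 25, Wnt3a, passed the count filter only through the pools labelled Rbm47-IKO, so that it had to differ to be tested. It is described below by its counts alone and left out of every other count of members. Of the other 24, 1 member, the canonical co-receptor Lrp5, was called higher in the pools labelled Rbm47-IKO at an edgeR quasi-likelihood adjusted p of 0.05 or less, and 0 members were called lower. Over all 16425 genes tested 2.7% were called, 1.45% higher and 1.25% lower. DESeq2 called Lrp5 and Fzd3, both higher, and 7.95% of all genes to which it gave an adjusted p. At an unadjusted p under 0.05 in edgeR there were 5 members, all higher: Wnt7b, Fzd3, Fzd7, Fzd8 and Lrp5. In the same 5 genes every pool labelled Rbm47-IKO was above every wt pool, and in Wnt6 and Lrp6 every one was below, while the pools overlapped in the other 17. Across all tested genes an unadjusted p under 0.05 was reached by 16.8% (8.57% higher and 8.21% lower), every Rbm47-IKO pool was above every wt pool in 11.7% and below in 11.6%. The median log2 fold change was 0.32 over the 24 members (range -1.01 to 1.72) and -0.0059 over all genes tested. Log2 fold change was above 0 in 18 members and below 0 in 6, and above 0 in 49.3% of all genes tested. By kind of member, it was above 0 in 13 of 14 tested receptors and co-receptors (median 0.45) and in 5 of 10 ligands (median 0.032), a difference that was not tested.

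**Figure D1:**
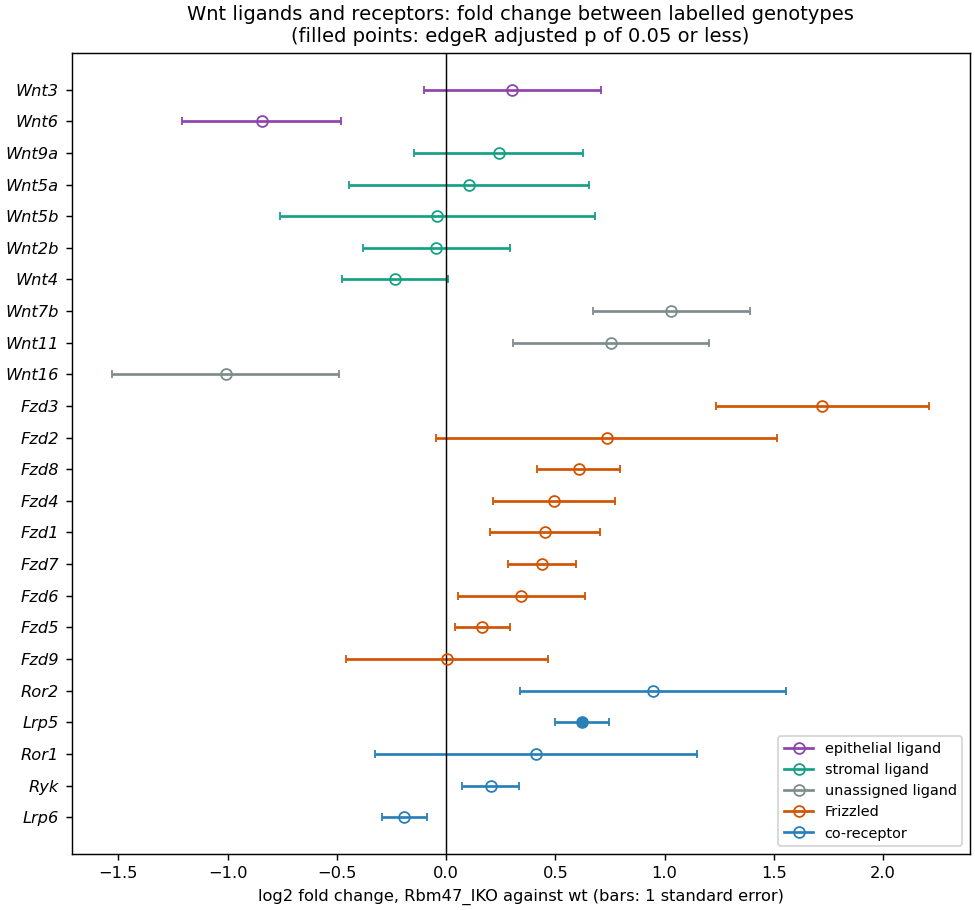
Log2 fold change between pools labelled Rbm47-IKO and wt pools (x axis) for 24 tested members (y axis, without Wnt3a), with bars of 1 standard error (SE) of the edgeR fit, colour for the kind of member and a filled point for an adjusted p of 0.05 or less. Lrp5 at 0.62 is the only filled point, and all 9 Frizzled points lie at or above 0.00.

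The call of Lrp5 depended on the pools used and on the fit, while its size moved less. With all 6 pools it was lost with DESeq2 size factors in edgeR (adjusted p = 0.0574). With the Y-linked sum as a covariate, added after seeing the data, 0 members and 59 genes in all (0.359%) were called, at a log2 fold change of Lrp5 of 0.56 against 0.62 without it. With wt pools 1 and 3 left out, also added then, 0 members and 1 gene (0.0057%) were called, with Lrp5 at 0.47. That fit has 1 wt pool, which is assumed to vary like the others. Leaving out both pools richest in smooth muscle gave 1 member, Fzd3 (all genes: 2%). Log2 fold change also rose with the GC content of the transcript over 16221 genes (Spearman's rho 0.271, a description across genes of the same 6 pools). The 24 members had a median GC content of 54.3%, against 49.8% over all those genes. With an offset for GC in each pool, 17 of the 24 were above 0, with a median of 0.31, and 0 were called (all genes: 1.64%), with Lrp5 at 0.54.

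Among epithelial ligands, the level of Wnt6 was lower in every pool labelled Rbm47-IKO and that of Wnt3 overlapped. Wnt6 (ENSMUSG00000033227, chr1:74771892-74785319) encodes a ligand of epithelial origin. It was at 0.349, 0.460 and 0.815 RPKM in Rbm47-IKO pools 1, 2 and 3 and at 1.08, 0.892 and 0.942 RPKM in wt pools 1, 2 and 3. The groups did not overlap, although Rbm47-IKO pool 3 came close to the lowest wt pool, and the difference did not pass (log2 fold change -0.84, SE 0.36, unadjusted p = 0.05002, adjusted p = 0.298 by edgeR). Wnt6 counts were 25 to 55 against 70 to 76, so that few reads stand behind each level.

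Wnt3 (ENSMUSG00000000125, chr11:103774150-103817957), the ligand of Paneth cells, was at 0.779, 0.704 and 0.438 RPKM against 0.727, 0.548 and 0.285 RPKM. The pools overlapped, with pool 3 the lowest of each group (log2 fold change 0.30, SE 0.41, adjusted p = 0.807 by edgeR). The summed CPM of 6 Paneth cell markers, all detected in every pool, was 867, 981 and 535 against 1928, 1369 and 537, and it too was lowest in pool 3 of each group. The Paneth sums overlapped between the labels, and the study reports comparable numbers of Paneth cells by lysozyme staining. The number of cells and the RNA per cell cannot be told apart in such bulk samples, here or for any other cell type below. Wnt9b had 2 to 5 counts in any pool and was not tested. Together, the 3 epithelial genes made up 22.6%, 19.5% and 17.5% of summed Wnt RPKM in the pools labelled Rbm47-IKO and 31.8%, 17.6% and 28.6% in wt.

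Of 6 stromal ligands 5 were tested and 0 passed at either p. Their pools overlapped between the labels in all 5, as did those of 76.7% of all genes tested, and their median log2 fold change was -0.04. Their levels instead followed the individual pools. Wnt2b, the most abundant ligand by the mean of the 6 pools (Wnt6 was higher in wt pool 3), was at 1.002, 1.29 and 1.77 RPKM in the pools labelled Rbm47-IKO and at 1.31, 1.98 and 0.906 RPKM in wt (log2 fold change -0.05, SE 0.34, adjusted p = 0.970 by edgeR). Wnt5a, which signals largely without β-catenin, was at 0.687, 0.996 and 1.27 RPKM against 0.335, 1.76 and 0.656 RPKM. Its log2 fold change of 0.10 had a SE of 0.55 (adjusted p = 0.959 by edgeR), so that differences of severalfold within a label were larger than any between labels.

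Wnt5b, its close relative, had counts of 20, 27 and 50 against 17, 78 and 12. Wnt4 was the steadiest of the stromal ligands, at 0.861, 0.844 and 0.869 RPKM against 0.996, 1.28 and 0.752 RPKM (log2 fold change -0.24, adjusted p = 0.725 by edgeR). Wnt9a had 23 to 49 counts against 26 to 43, and Wnt2 had at most 6 counts and was not tested. For Wnt5a, 4.58% of the exonic length overlaps a gene on the other strand, and whether counting used strand is not given in the sources used here.

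All 5 tested stromal ligands were highest in Rbm47-IKO pool 3 and in wt pool 2 among the pools of their label. Over all members 13 of 24 (54.2%) had this order, against 16.4% of all genes tested. The other 8 were Fzd1, Fzd2, Fzd3, Fzd6, Fzd8, Ror1, Ror2 and Wnt7b. The same pools were the highest in summed smooth muscle CPM (361, 586 and 3302 against 90.7, 2803 and 313) and in summed fibroblast CPM (137, 222 and 333 against 81.7, 394 and 134). Endothelial markers, 14.5 to 26.9 CPM against 17.5 to 45.2 CPM, and enteric nervous markers, 2.46 to 11.4 CPM against 1.68 to 8.93 CPM, were highest there too. All fibroblast and endothelial markers were detected in every pool, and of the enteric nervous markers Gfap was at 0 in wt pool 1. The part of stromal RNA in the members' values was not tested beyond the covariate fits. With the smooth muscle sum or the fibroblast sum as a covariate, Fzd3 passed besides Lrp5, as did 4.33% and 4.51% of all genes.

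**Figure D2:**
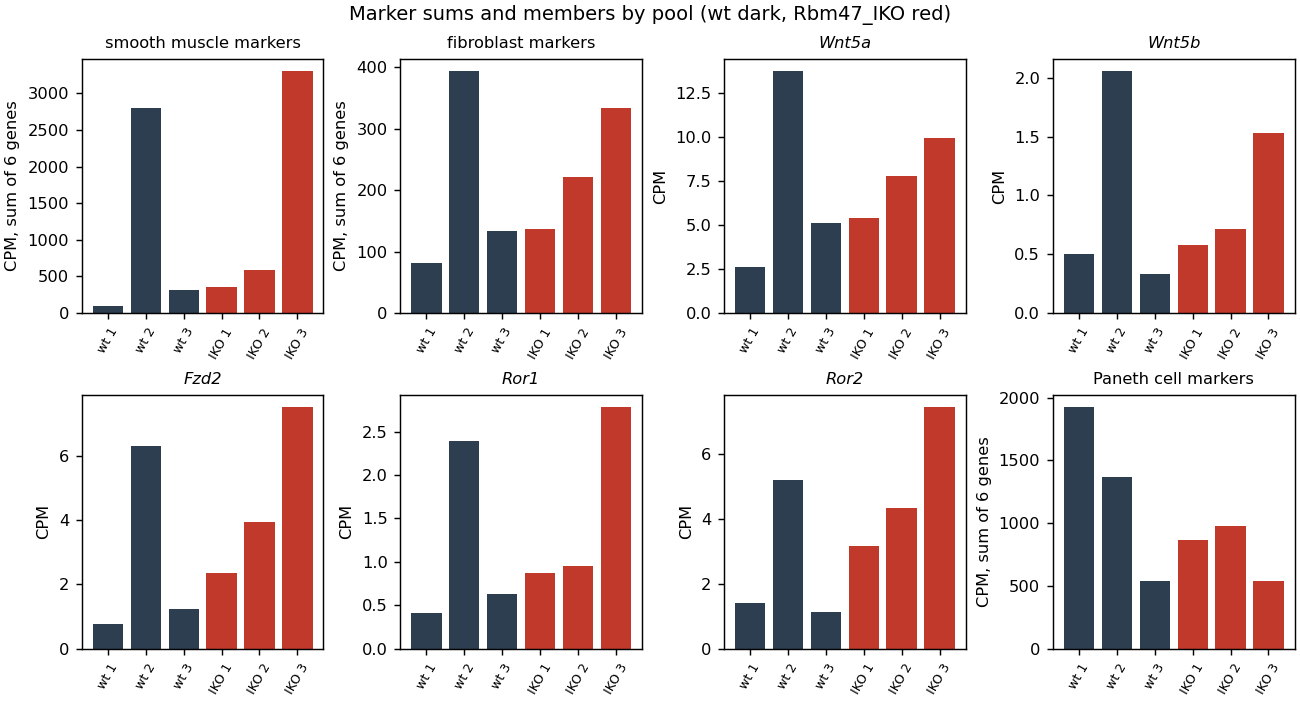
Normalised level in each of the 6 pools (x axis, wt dark and Rbm47-IKO red) of summed marker genes and of 5 members, in CPM (y axes, each from 0). Wnt5a, Wnt5b, Fzd2, Ror1 and Ror2 peak in wt pool 2 and Rbm47-IKO pool 3, as the smooth muscle sum does at 2803 and 3302 CPM, while the Paneth sum is lowest in pool 3 of each group.

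Among the 10 unassigned ligands 4 passed the count filter, Wnt3a only through the pools labelled Rbm47-IKO. Wnt3a (ENSMUSG00000009900, chr11:59248033-59290752) encodes a potent canonical ligand. It had 15, 15 and 12 counts in the pools labelled Rbm47-IKO and 1, 2 and 0 counts in the wt pools. The level stayed low in both labels, at 0.133 to 0.157 RPKM against 0 to 0.0191 RPKM.

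Wnt7b (ENSMUSG00000022382, chr15:85535439-85581821), a ligand made by epithelia in several organs, was at 0.295, 0.335 and 0.340 RPKM against 0.140, 0.227 and 0.106 RPKM. Every pool labelled Rbm47-IKO was above every wt pool, and the difference did not pass after adjustment (log2 fold change 1.03, SE 0.36, unadjusted p = 0.0218, adjusted p = 0.198 by edgeR). Wnt11, a ligand of convergent extension movements, was at 0.334, 0.385 and 0.362 RPKM against 0.340, 0.203 and 0.0982 RPKM. Here wt pool 1 reached the range of the other label, and 10.0% of the exonic length overlaps a gene on the other strand (log2 fold change 0.76, SE 0.45, adjusted p = 0.467 by edgeR). Wnt16 had 15, 27 and 6 counts against 42, 31 and 24. It had the lowest log2 fold change of the members, -1.01 with a SE of 0.52, and its pools overlapped (adjusted p = 0.387 by edgeR). Wnt1, Wnt7a, Wnt8a, Wnt8b, Wnt10a and Wnt10b were not tested, with at most 3 counts in any pool and 0 in every pool for Wnt8a.

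**Figure D3:**
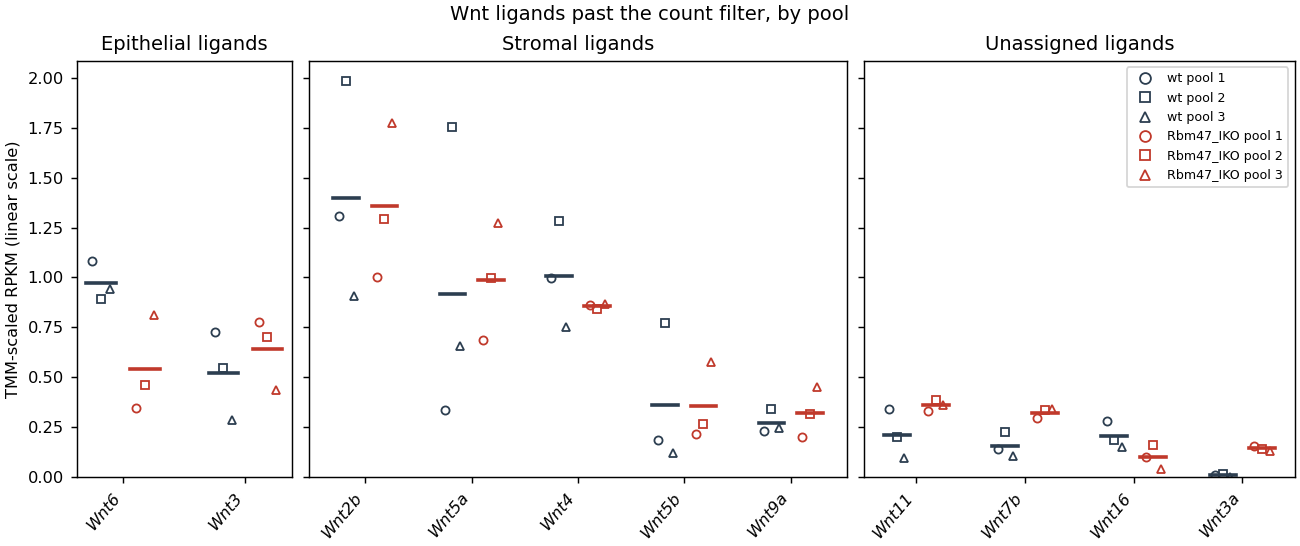
Level in each pool of the 11 ligands past the count filter, in TMM-scaled RPKM on a linear axis from 0, with points for pools and lines for the mean of 3 pools. Stromal ligands spread widely within a label (Wnt5a from 0.335 to 1.76 RPKM in wt), Wnt6 lies lower in each Rbm47-IKO pool, and Wnt3a is near 0 in wt.

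All 9 tested Frizzled genes had a log2 fold change above 0, with a median of 0.45, and 0 passed the adjusted threshold with edgeR, while DESeq2 called Fzd3. Of these, 3 had an unadjusted p under 0.05, the same 3 in which every pool labelled Rbm47-IKO was above every wt pool: Fzd3, Fzd7 and Fzd8. Over all genes tested 49.3% were above 0, 8.57% were higher at an unadjusted p under 0.05, and 11.7% had every pool labelled Rbm47-IKO above every wt pool. The size of the Fzd9 value, 0.00, and the fits in which Fzd2 and Fzd9 fell below 0 (Fzd2 with wt pools 1 and 3 left out, Fzd9 under 9 of the 18 alternatives that gave it a value) limit that count. Summed over the 10 Frizzled genes, the level was 56.5, 59.9 and 57.5 RPKM against 48.2, 46.5 and 50.6 RPKM, a sum formed after the values were seen and given without a test.

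Fzd5 (ENSMUSG00000045005, chr1:64730560-64737750), a Frizzled needed for the maturation of Paneth cells, was the most abundant member of all. Its level was 42.0, 41.2 and 38.1 RPKM in the pools labelled Rbm47-IKO and 38.5, 30.9 and 38.7 RPKM in wt, which overlap (log2 fold change 0.17, SE 0.12, adjusted p = 0.586 by edgeR). It made up 66.2% to 74.3% of summed Frizzled RPKM in the pools labelled Rbm47-IKO and 66.5% to 79.9% in wt. Fzd7 (ENSMUSG00000041075, chr1:59482147-59486947), the Frizzled most tied to intestinal stem cells, came next among the Frizzled genes. It was at 28.5, 35.8 and 29.6 CPM against 19.2, 26.8 and 23.3 CPM. Its groups did not overlap, but the lowest Rbm47-IKO pool stood close to the highest wt pool (log2 fold change 0.44, SE 0.16, unadjusted p = 0.0237, adjusted p = 0.206 by edgeR).

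Fzd8 (ENSMUSG00000036904, chr18:9212856-9216201), a receptor for canonical ligands, was at 1.86, 1.88 and 1.95 RPKM against 1.15, 1.48 and 1.11 RPKM. The pools labelled Rbm47-IKO lay within a narrow band above all wt pools, and the difference still did not pass (log2 fold change 0.61, SE 0.19, unadjusted p = 0.0140, adjusted p = 0.156 by edgeR). Fzd3 (ENSMUSG00000007989, chr14:65201026-65262463), a planar polarity receptor best known from axon guidance, had 53, 76 and 70 counts against 11, 39 and 13. This is 0.448 ± 0.0761 RPKM (SD, n = 3) against 0.135 ± 0.0940 RPKM (SD, n = 3). It had the largest log2 fold change of the tested Frizzled genes, 1.72 with a SE of 0.49, and did not pass in the fit to all pools (unadjusted p = 0.00819, adjusted p = 0.117 by edgeR). It passed with DESeq2 (adjusted p = 0.0171, all genes: 7.95%), with either stromal covariate (adjusted p = 0.0322 and 0.0245 by edgeR), without wt pool 2 (adjusted p = 0.0261 by edgeR, all genes: 2.58%) and without both pools richest in smooth muscle (adjusted p = 0.0379 by edgeR). Over all alternatives its adjusted p ran from 0.0171 to 0.497, and without wt pools 1 and 3 its log2 fold change was 0.89.

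Fzd2, a receptor for WNT5A, varied most between pools, at 0.653, 1.09 and 2.08 RPKM against 0.211, 1.74 and 0.340 RPKM. The highest pools were those richest in smooth muscle markers, and the difference was within the spread of the pools (log2 fold change 0.74, SE 0.78, adjusted p = 0.736 by edgeR). The log2 fold change of Fzd2 ran from 0.19 to 2.20 with 1 pool left out. Without both pools richest in smooth muscle it was 1.65. Fzd4, Fzd1 and Fzd6 overlapped between groups as well, with log2 fold changes of 0.49, 0.45 and 0.34 (adjusted p of 0.446, 0.433 and 0.640 by edgeR). Fzd9 had 26, 28 and 11 counts against 25, 28 and 13, a log2 fold change of 0.00 with a SE of 0.46. Fzd10 had at most 11 counts in any pool and was not tested.

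Lrp5 was the clearest difference among the receptors. Lrp5 (ENSMUSG00000024913, chr19:3584828-3686564) was at 18.5, 18.6 and 18.1 RPKM in the pools labelled Rbm47-IKO, each of which had more Rbm47 than any wt pool. In wt pools 1, 2 and 3 Lrp5 was at 10.2, 13.4 and 12.3 RPKM. The groups were well apart, and the pools labelled Rbm47-IKO differed little among themselves (18.4 ± 0.239 RPKM against 11.9 ± 1.64 RPKM, SD, n = 3 pools each). Log2 fold change was 0.62 with a SE of 0.12 (unadjusted p = 0.00114, adjusted p = 0.0455 by edgeR), from 5763 to 6852 counts per pool against 3362 to 4945. Its size held between 0.47 and 0.71 under every alternative, but its adjusted p ran from 0.00176 with DESeq2 to 0.233 without wt pools 1 and 3. Of the 6 fits that left out 1 pool it passed only without wt pool 2 (adjusted p = 0.0399 by edgeR), and without any of the others the adjusted p was 0.0652 to 0.231. With the GC offset the log2 fold change was 0.54 (adjusted p = 0.0833 by edgeR), the Lrp5 transcript having a GC content of 54.7%, higher than 76.7% of the tested genes.

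Lrp6 (ENSMUSG00000030201, chr6:134446476-134566965), the sister co-receptor, stood the other way. It was at 17.0, 15.1 and 17.3 RPKM in the pools labelled Rbm47-IKO and at 19.6, 17.9 and 19.1 RPKM in wt. Every pool of the first label was below every wt pool, with a gap smaller than the spread within either group, and the difference did not pass (log2 fold change -0.19, SE 0.10, unadjusted p = 0.101, adjusted p = 0.414 by edgeR). Within a pool the ratio of Lrp5 to Lrp6 RPKM was 1.09, 1.23 and 1.05 in the pools labelled Rbm47-IKO and 0.518, 0.748 and 0.646 in wt. This ratio was formed after the values were seen and is given without a test.

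Ryk, a receptor with an inactive kinase domain, was at 70.6, 72.0 and 70.6 CPM against 53.8, 58.0 and 73.4 CPM. Only wt pool 3 reached the level of the other label (log2 fold change 0.20, SE 0.13, adjusted p = 0.511 by edgeR). Ror2, a receptor for WNT5A, was at 0.749, 1.02 and 1.76 RPKM against 0.333, 1.23 and 0.265 RPKM, and Ror1 was at 0.150, 0.165 and 0.484 RPKM against 0.0715, 0.416 and 0.110 RPKM. Both overlapped and were highest in the pools richest in smooth muscle markers. Their log2 fold changes were 0.95 (SE 0.61, adjusted p = 0.513 by edgeR) and 0.41 (SE 0.74, adjusted p = 0.863 by edgeR). That of Ror2 ran from 0.54 to 1.98 with 1 pool left out, and was 1.56 without both pools richest in smooth muscle.

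**Figure D4:**
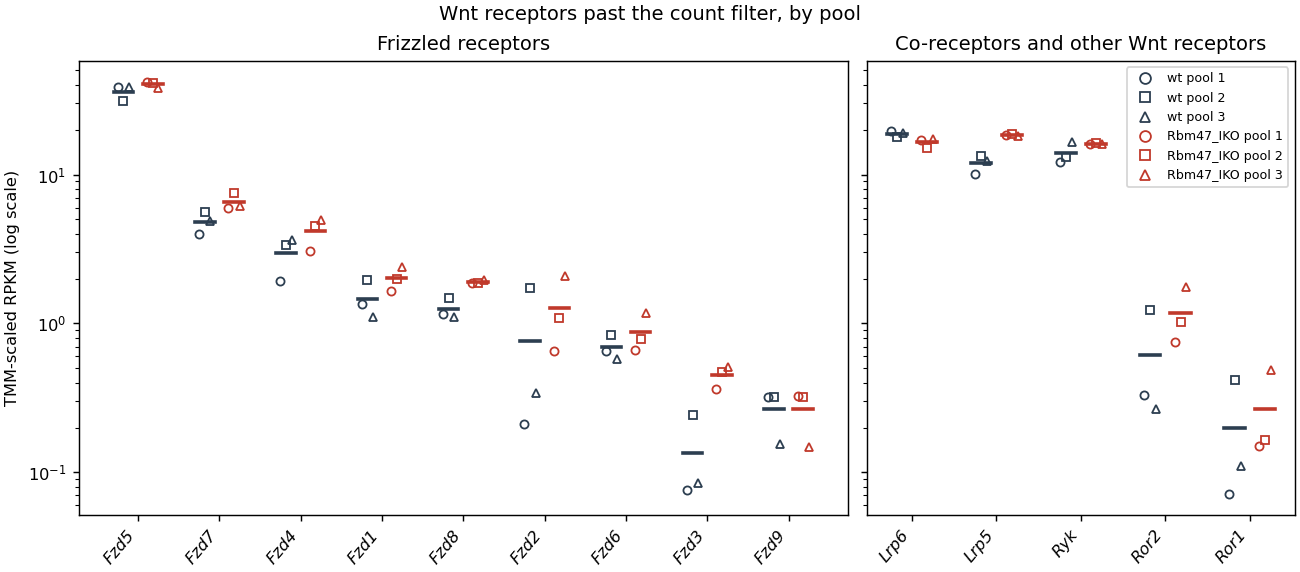
Level of the 9 tested Frizzled genes and of the 5 other receptors in each pool, in TMM-scaled RPKM on a log axis, with points for pools and lines for the mean of 3 pools. Fzd5, Lrp6, Lrp5 and Ryk stand above 10 RPKM, the Lrp5 points of the 2 labels are apart, and Fzd2, Ror1 and Ror2 spread widely within each label.

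Ordered by mean RPKM over the 6 pools, the members ran Fzd5, Lrp6, Lrp5, Ryk, Fzd7, Fzd4, Fzd1, Fzd8 and Wnt2b, so that 8 receptors stood above the first ligand. Fzd5 was above all others in every pool, at 30.9 to 42.0 RPKM. Next came Lrp6 in the wt pools (17.9 to 19.6 RPKM) and Lrp5 in the pools labelled Rbm47-IKO (18.1 to 18.6 RPKM). Lrp6, Lrp5 and Ryk, at 10.2 to 19.6 RPKM, overlapped over the 6 pools and stood above Fzd7. From Fzd7 to Wnt2b the ranges of neighbours in this order overlapped. Ligand levels were lower, and their sum over 19 genes was 5.12, 6.03 and 7.22 RPKM against 5.72, 8.37 and 4.34 RPKM, with stromal genes making up 58.9% to 68.8% against 54.1% to 74.2%.

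Other genes of the pathway were described from lists made of their known roles, 66 genes in all, of which 55 were tested. With edgeR the only one called was Kremen1, higher in the pools labelled Rbm47-IKO, and DESeq2 called Kremen1 and Prickle2 (all genes: 7.95%). Of the 55, 41 were above 0, with a median log2 fold change of 0.31, and 10 had an unadjusted p under 0.05, all higher. In 13 genes every Rbm47-IKO pool was above every wt pool and in 1, Celsr3, below. The background shares given above (49.3% above 0, 1.45% called higher, 8.57% at an unadjusted p under 0.05 and higher, and 11.7% with separate pools) apply here too. KREMEN1 binds Dickkopf proteins and removes LRP5 and LRP6 from the cell surface. Kremen1 (ENSMUSG00000020393, chr11:5191552-5261558) was at 3.98, 4.22 and 3.89 RPKM against 2.07, 2.47 and 2.69 RPKM, with no overlap (log2 fold change 0.74, SE 0.13, adjusted p = 0.0300 by edgeR). Its log2 fold change stayed between 0.65 and 0.83 under every alternative. The adjusted p was 0.0592 with the GC offset (log2 fold change 0.65), 0.119 with the Y-linked covariate (0.71) and 0.159 with wt pools 1 and 3 left out (0.72). It was 0.0679 without both pools richest in smooth muscle. Of 6 fits that left out 1 pool it passed in 2, without wt pool 1 or wt pool 2 (adjusted p = 0.0490 and 0.0483 by edgeR), and without any of the others the adjusted p was 0.0644 to 0.196.

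In the other groups edgeR called 0 genes and DESeq2 called Prickle2. For ligand release, 2 of 3 genes were tested. Wls, the carrier that takes Wnt proteins to the cell surface, was at 13.5, 13.3 and 18.5 CPM against 8.12, 12.7 and 8.01 CPM, with no overlap and a log2 fold change of 0.65 (SE 0.23, adjusted p = 0.207 by edgeR). Porcn, the enzyme that attaches the lipid, had a log2 fold change of 0.17 (adjusted p = 0.935 by edgeR). In the R-spondin arm, which guards Frizzled receptors from removal, 5 of 6 tested genes were above 0 and 3 were not tested. Rnf43 and Znrf3, the ubiquitin ligases that clear Frizzled receptors, had log2 fold changes of 0.29 and 0.47 (adjusted p of 0.293 and 0.276 by edgeR), with no overlap of pools in either. Rspo1 had 1.16 with a SE of 0.81 (adjusted p = 0.549 by edgeR). Its log2 fold change ran from 0.75 to 2.59 with 1 pool left out, and was 0.006 with wt pools 1 and 3 left out. Lgr5, a stem cell receptor for R-spondins, had 0.18 (adjusted p = 0.829 by edgeR). Lgr5 is also 1 of 5 stem cell markers, of which 2 were above 0 and 3 below, with sums of 112, 96.9 and 119 CPM against 149, 217 and 93.6 CPM. Of these, Olfm4 was lower in every pool labelled Rbm47-IKO, at 16.8, 16.4 and 12.3 CPM against 43.0, 79.7 and 20.7 CPM (log2 fold change -1.65, SE 0.43, unadjusted p = 0.00553, adjusted p = 0.0974 by edgeR, 0.000189 to 0.325 over the alternatives).

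Of the 15 extracellular inhibitors 8 were tested and 7 were above 0. Within their label, Dkk2, Dkk3, Sfrp1, Sfrp5 and Apcdd1 were highest in Rbm47-IKO pool 3 and wt pool 2, the pools richest in smooth muscle markers. Dkk4, Kremen1 and Kremen2 were not. Some genes of the other lists had that order too, among them Wls and the target Nkd1. Dkk2 had a log2 fold change of 0.69 with a SE of 1.21 (adjusted p = 0.859 by edgeR). In the cytoplasm 10 genes were tested and 6 were above 0. Dvl2 and Dvl3, which relay the signal from Frizzled receptors, had log2 fold changes of 0.47 and 0.29 (adjusted p of 0.211 and 0.191 by edgeR) and separate pools. Axin1 and Gsk3b, of the complex that destroys β-catenin, had 0.07 and -0.10 (adjusted p of 0.860 and 0.782 by edgeR). Among 8 nuclear factors 6 were above 0, with Tcf7l2, the main TCF factor of intestinal epithelium, at 0.34 and Pygo2, a co-activator, at 0.31 (adjusted p of 0.194 and 0.169 by edgeR).

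Of 16 targets of the canonical branch 15 were tested, 11 were above 0, and the median was 0.29. Ephb2, which positions cells along the crypt, had a log2 fold change of 0.41, Sox9 0.34, Myc 0.44 and Ccnd1 0.50 (adjusted p of 0.290, 0.523, 0.474 and 0.693 by edgeR), and pools overlapped in all 4. Axin2, which feeds back on the pathway, had 0.20 (adjusted p = 0.403 by edgeR). The 4 targets below 0 were Sp5 at -0.57, Ascl2 at -0.41, Tnfrsf19 at -0.18 and Cd44 at -0.052 (adjusted p of 0.467, 0.802, 0.934 and 0.929 by edgeR). Ccnd1 was at 69.7, 42.3 and 23.8 CPM against 53.6, 22.4 and 20.0 CPM, a wide spread within each label. In the planar polarity list 8 of 10 genes were above 0. Prickle2, a core polarity protein, had 0.83 (SE 0.23, adjusted p = 0.114 by edgeR, DESeq2 adjusted p = 0.00704) with separate pools, and Prickle3 had 0.50 (adjusted p = 0.306 by edgeR).

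**Figure D5:**
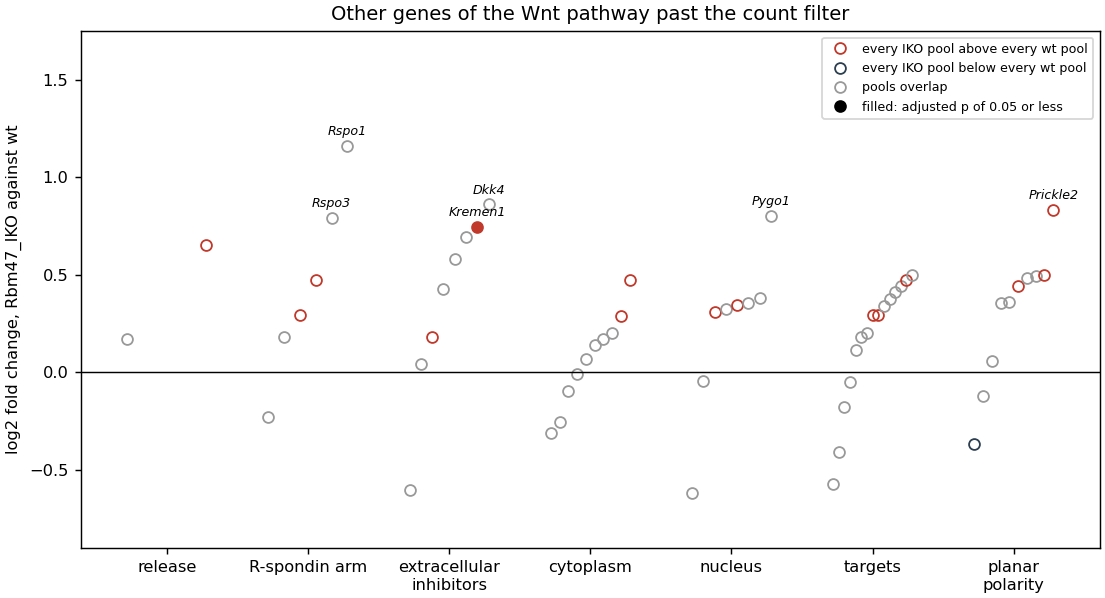
Log2 fold change between pools labelled Rbm47-IKO and wt pools (y axis) for tested genes of 7 lists of the Wnt pathway (x axis), some genes being in more than 1 list. Colour shows whether pools of the labels are separate, and Kremen1 at 0.74 is the only filled point, for an edgeR adjusted p of 0.05 or less.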

How the data were processed

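Mucosal RNA from 6 pools, 3 per label, was sequenced on a HiSeq2000. Per the submitters' processing notes, reads were aligned with STAR 2.5.1a and counted with featureCounts 1.4.6-p5 of Subread on GRCm38; strand use is not given in the sources used here. The authors deposited for each pool a raw count per Ensembl gene, with CPM (scaled to the total of each pool) and RPKM (that CPM per kilobase of gene length). The deposited CPM and RPKM columns were recomputed from the counts to check them and not used further. Symbols were found for 36639 of 38561 genes, and all 34 members lay at their GENCODE M21 position.

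Counts past filterByExpr (16425 genes) were TMM-normalized and tested with the edgeR 4.0.16 quasi-likelihood test in R 4.3.3, intercept and label only, with Benjamini-Hochberg adjustment over all tested genes and a threshold of 0.05 as in the study. CPM and RPKM in the text were computed from counts with TMM library sizes. Alternatives were other normalizations and filters, DESeq2 1.42.0, limma 3.58.1 (voom), a pool number block, covariates of marker sums, and pools left out. A Y-linked covariate, a GC offset (lowess, span 0.3, on the longest GENCODE M21 transcript) and leaving out wt pools 1 and 3 were added after seeing the data. For 3 pools against 3 the smallest p of an exact permutation test is 0.1. Reads are not independent molecules. The fit was run on simulated data in which 200 genes had been changed. Those data were drawn from the dispersions of the fit itself, without differences in stroma, sex or GC between pools. The simulation therefore cannot show how such differences move the calls. No pools held identical values. Tables and figures were made with Python 3.11.15.

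All 34 members are accounted for. Values per pool were given for tested members with the highest or lowest levels, an unadjusted p under 0.05 or PCR primers in the study. Of each pathway list the genes called, or else the 2 with the smallest p, and those the study measured by PCR were named, most of them by log2 fold change and adjusted p. Xist, the Y-linked genes, Gfap, Celsr3, Axin2, Nkd1, the canonical targets below 0, Olfm4, Apoa4, Sis and Fabp2 and some values of other members are not named by that rule and were picked with their values in view. So were the inhibitors Dkk3, Dkk4, Sfrp1, Sfrp5, Apcdd1 and Kremen2. Members, lists and tests were chosen with earlier results of these data known.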

Additional observations from a re-analysis of the deposited data

How the results depend on the processing

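The number of members called, 1 as reported (Lrp5), was 2 with DESeq2 or either stromal covariate (Fzd3 added), 0 with DESeq2 size factors, the replicate block, the Y-linked covariate, the GC offset or wt pools 1 and 3 left out, and 0 to 2 with 1 pool left out, above 0 only without wt pool 2. With both pools richest in smooth muscle left out it was 1, Fzd3. Pathway genes called, 1 as reported, numbered 2 with DESeq2, 0 to 1 with 1 pool left out, and 0 with the replicate block, the Y-linked covariate, the GC offset, both pools richest in smooth muscle left out or wt pools 1 and 3 left out. Genes called in all, 443 as reported, numbered 1132 with DESeq2, 711 and 741 with the smooth muscle and fibroblast covariates, 270 with the GC offset, 100 with the replicate block, 59 with the Y-linked covariate, 1 with wt pools 1 and 3 left out, and 0 to 431 with 1 pool left out (0 without Rbm47-IKO pool 2, 11 without wt pool 3, 32 without Rbm47-IKO pool 1 and 119 without Rbm47-IKO pool 3). Rbm47 kept its direction under every alternative (log2 fold change 0.39 to 0.46) and passed with library size only (0.41) and DESeq2 (0.42). Pool numbers did not pair the pools. Deviations of same-numbered pools correlated at 0.408, -0.00258 and -0.277, and only for Rbm47-IKO pool 1 was its own number the best match. The calls lost with the block were Lrp5 (log2 fold change 0.63, adjusted p of 0.0961) and Kremen1 (0.75, adjusted p of 0.0712). The causes of these changes were not tested.

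Of 24 tested members without Wnt3a, 16 kept their direction under every alternative that gave them a value (18 of 20 for Wnt16), 12 above 0 and 4 below 0 (Lrp6, Wnt4, Wnt6 and Wnt16). Some of these 16 came near 0, such as Wnt3 at 0.013 without wt pool 3 and Wnt4 at -0.024 without wt pool 2. Fzd1 was 0.051 and Fzd6 0.067 with wt pools 1 and 3 left out. The other 8 members reversed under some alternatives, without passing the threshold in any. With wt pools 1 and 3 left out the log2 fold changes were -0.83 for Wnt5a, -0.073 for Wnt9a, -0.44 for Fzd2, -0.26 for Fzd9, -0.64 for Ror1, -0.058 for Ror2, -0.62 for Porcn, -0.21 for Lgr5, -0.63 for Dkk2, -0.013 for Axin1 and 0.14 for Gsk3b. With both pools richest in smooth muscle left out they were 0.048 for Wnt2b, 0.63 for Wnt5b and 0.18 for Cd44. With the Y-linked covariate they were -0.091 for Wnt5a, -0.22 for Fzd9 and -0.038 for Lgr5. With the GC offset they were -0.16 for Fzd9, -0.047 for Axin1 and 0.032 for Cd44. Fzd9 was -0.04 with upper quartile scaling, -0.026 with library size only and -0.012 with the replicate block, and Wnt5b was 0.26 with limma-voom and 0.23 with the block. With the smooth muscle and the fibroblast covariate Wnt5a was -0.032 and -0.006 and Porcn -0.19 and -0.087. With 1 pool left out the ranges were -0.28 to 0.30 for Wnt2b, -0.29 to 0.99 for Wnt5a, -0.57 to 1.18 for Wnt5b, -0.073 to 0.49 for Wnt9a, -0.26 to 0.29 for Fzd9, -0.34 to 1.54 for Ror1, -0.49 to 0.83 for Porcn, -0.93 to 2.74 for Dkk2, -0.79 to 0.16 for Ascl2, -0.81 to 0.49 for Tnfrsf19, -0.12 to 0.098 for Cd44 and -0.028 to 0.12 for Axin1. Low counts per pool limit what can be told of most ligands.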
